A study of Homo sapiens with 12 samples.

Results

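The comparison described here set Raji cells labelled GFP-low and treated with FX1 against Raji cells labelled GFP-high and given DMSO, the solvent, which the titles call untreated. GFP-high and GFP-low are called gates here. It used 6 of the 12 libraries of the series, 3 in each group, chosen by their labelled gate and treatment and not by any measured value. Raji is an established human line from a Burkitt lymphoma, a cancer of germinal centre B cells. FX1 is a small molecule that binds the BTB domain of the repressor BCL6, and its dose is not stated in the labels. All 12 libraries were labelled Smarca4+/+ and taken at 24 h. The design text names a degron that removes SMARCA4 protein when auxin is added, but the labels do not say how much SMARCA4 protein the GFP-high and GFP-low cells held, or whether the line is a single clone. The remaining 6 libraries, GFP-high with FX1 and GFP-low with DMSO, change 1 factor at a time. The groups compared differ in both gate and treatment, so in this contrast alone the factors cannot be told apart. The labels do not call the replicates separate cultures, and a p-value here reflects only how much the libraries of a group varied, perhaps for technical reasons.

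BCL6 is the transcriptional repressor that keeps germinal centre B cells from leaving their programme, and among its known targets are PRDM1 (BLIMP1, the driver of plasma cell fate) and genes of DNA damage sensing and activation. It acts through corepressors such as BCOR and NCOR1, which FX1 is designed to displace. SMARCA4 (BRG1) is the ATPase of SWI/SNF chromatin remodelling complexes, which slide and evict nucleosomes at enhancers and promoters.

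The deposited table gave read counts per gene. The 12 libraries held 20454028 to 42556661 counts, and library values below are CPM (read counts scaled to a common library size) after scaling of library sizes by TMM. In a principal component plot of all 12 libraries the first axis held 59.8% of the variance and the second 14.8%. Replicates were close: the common biological coefficient of variation was 1.67%, and within a group the variance between libraries was 1.70 to 2.01 times that of counting alone. Some library-wide measures moved with the groups. Mitochondrially encoded transcripts made up 7.84% to 7.91% of counts in GFP-high DMSO and 5.05% to 5.13% in GFP-low FX1. RN7SL1, the RNA of the signal recognition particle, made up 0.161% to 0.183% and 0.549% to 0.587%. No spike-in RNA is named in the labels, so every value is relative to the other RNA of its library. In bulk samples like these, fewer cells of a type and less RNA per cell cannot be told apart.

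Of 17859 genes tested, 13264 (74.3%) passed the threshold of 0.05 on the adjusted p of edgeR's quasi-likelihood test. Of these, 6647 rose (37.2% of those tested) and 6617 fell (37.1%) in GFP-low FX1, and the median log2 change of all tested genes was 0.01. Changes below are on the log2 scale unless CPM or a fold is named, and they compare GFP-low FX1 with GFP-high DMSO unless said otherwise. Most were small. A change of 2-fold or more was called for 4261 genes (23.9%), with 2232 higher (12.5%) and 2029 lower (11.4%). At 4-fold or more there were 476 rises and 535 falls, and at 16-fold or more 46 rises and 61 falls. The libraries of the groups did not overlap for 13429 genes (75.2%). With this background, a gene list in which about 3 in 4 members were called is ordinary, and the lists below are described by how their calls divided between rises and falls and by their median. Up to 4 members per list were picked for naming as called ones with the largest changes, so their passing was fixed by that choice. Their p-values and their lack of overlap are only a description.

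The calls divided by the kind of gene and by base composition. Protein-coding genes made up 65.7% of genes tested, 53.8% of 2-fold rises and 45.2% of 2-fold falls. Small nucleolar RNAs counted 13 rises of 2-fold or more and 49 falls among 156 tested, and small nuclear RNAs 18 rises and 48 falls among 183. Reads over microRNA genes went the other way, with 61 rises and 20 falls among 172. Whether such reads came from mature microRNAs or from longer transcripts over the same bases was not tested. Across 17557 genes with a known GC content, the change was related to it (Spearman's rho across genes 0.390, with genes not independent replicates). Of 5 equal classes by GC, the lowest had 14.1% rising and 60.7% falling, and in the highest 66.4% rose and 15.3% fell. Fitting and removing the trend on GC and length kept 9924 of 13072 calls with their direction, lost 2188 and turned 960. Its part in single results was not tested beyond that. Values after removing it are called GC-adjusted, and below they stand beside each list count, list median and single change that they turn, bring in or out of the calls or move by more than 1.5 times.

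**Figure D1:**
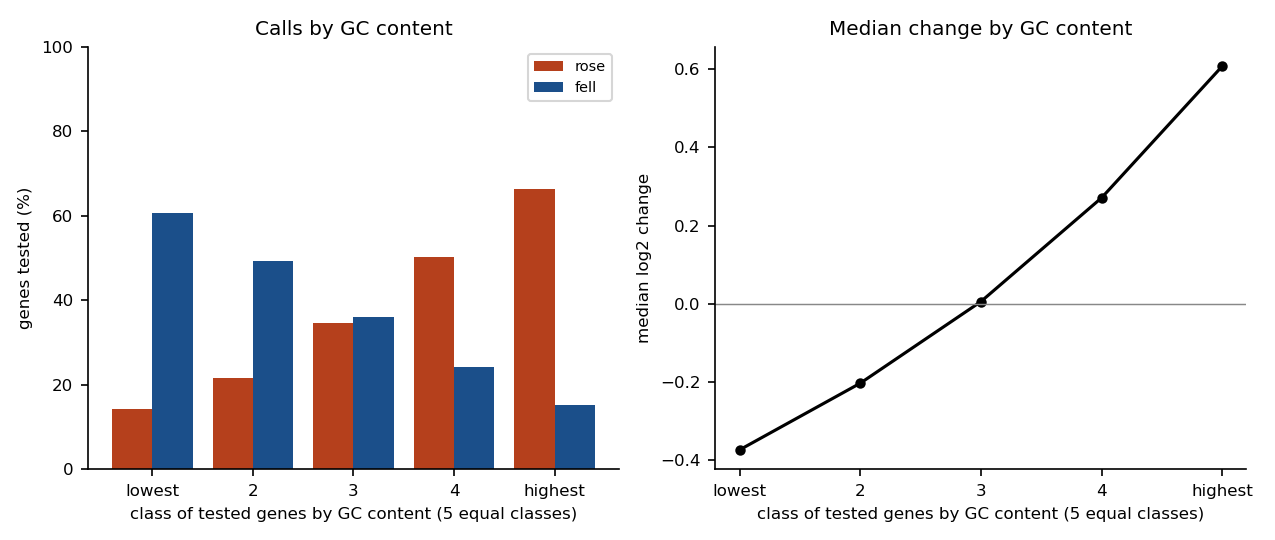
Genes tested, in 5 equal classes by GC content, with the share that rose or fell in GFP-low FX1 against GFP-high DMSO (left, in %) and the median log2 change (right). The share that rose climbs from 14.1% to 66.4% and the median from -0.37 to 0.61 from the lowest to the highest class.

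The transcripts of the genes targeted in the system were examined first. BCL6 (hg38, chr3:187721377-187745725) stood at 400.3, 401 and 399 CPM in the GFP-high DMSO libraries and 216, 211 and 226 CPM in the GFP-low FX1 libraries. All FX1 libraries lay below all DMSO libraries, and the transcript fell by 0.88 ± 0.018 on the log2 scale (SE, edgeR adjusted p = 2.6e-120). With 1 factor changed, the mean was 199 CPM in GFP-high FX1 and 339 CPM in GFP-low DMSO. SMARCA4 (chr19:10960932-11079426) was at 384, 382 and 376 CPM in GFP-high DMSO and 455, 460.4 and 452 CPM in GFP-low FX1. It was higher in all 3 GFP-low FX1 libraries, by 0.26 ± 0.015 (log2, SE, edgeR adjusted p = 5.6e-43), but its direction turned to -0.41 once the GC trend was removed. Because a degron acts on protein, this transcript does not check the gate. Its paralogue SMARCA2 rose by 0.18 ± 0.032 (GC-adjusted 0.34, edgeR adjusted p = 5.8e-08), from 74.5 to 84.5 CPM.

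Among 28 SWI/SNF subunit genes tested, 17 rose and 7 fell, with a median log2 change of 0.18 against 0.01 for all tested genes. The larger rises were in accessory subunits, BCL7C at 1.35 (GC-adjusted 0.67), BICRA at 1.16 and SMARCD3 at 0.93, all of them at low levels of at most 29.7 CPM. The BAF-specific subunits ARID1A and ARID1B rose by 0.59 and 0.65 (GC-adjusted 0.06 and 0.27). BRD7 and PBRM1, subunits of the PBAF form, fell by 0.67 and 0.54 on the log2 scale, PBRM1 with a GC-adjusted change of -0.28. After the GC trend was removed 12 members rose and 10 fell (median 0.03), and BICRA, at 0.13, no longer passed. Of 17 BCL6 corepressor genes, 10 rose and 4 fell (median 0.27), which became 5 rises and 7 falls (median -0.0043) without the GC trend. TBL1XR1, a subunit of the NCOR complexes, fell by 1.15 on the log2 scale from 718 to 323 CPM (GC-adjusted -0.74).

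PRDM1 was the member of the BCL6-repressed list that rose most. Its transcript was at 19.3, 20.2 and 18.9 CPM in GFP-high DMSO and at 125, 122 and 126 CPM in GFP-low FX1. The groups lay far apart, with a log2 change of 2.67 ± 0.039 (SE, edgeR adjusted p = 3.6e-156), or 6.36-fold. With 1 factor changed, its mean was 80.4 CPM in GFP-high FX1 and 38.3 CPM in GFP-low DMSO. The genes known as BCL6-repressed divided. Among the 22 tested, PRDM1 included, 8 rose and 12 fell, and the median was -0.21 (GC-adjusted 9 rises, 11 falls and -0.33). CXCR4, the chemokine receptor of dark-zone cells, rose by 1.16, and MYC by 1.12. CD69, an early activation marker, fell by 1.51 on the log2 scale (GC-adjusted -0.93), FCER2 (CD23) by 1.75 and IRF4, a regulator of plasma cell fate, by 1.81, the last from 11.3 to 3.30 CPM.

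**Figure D2:**
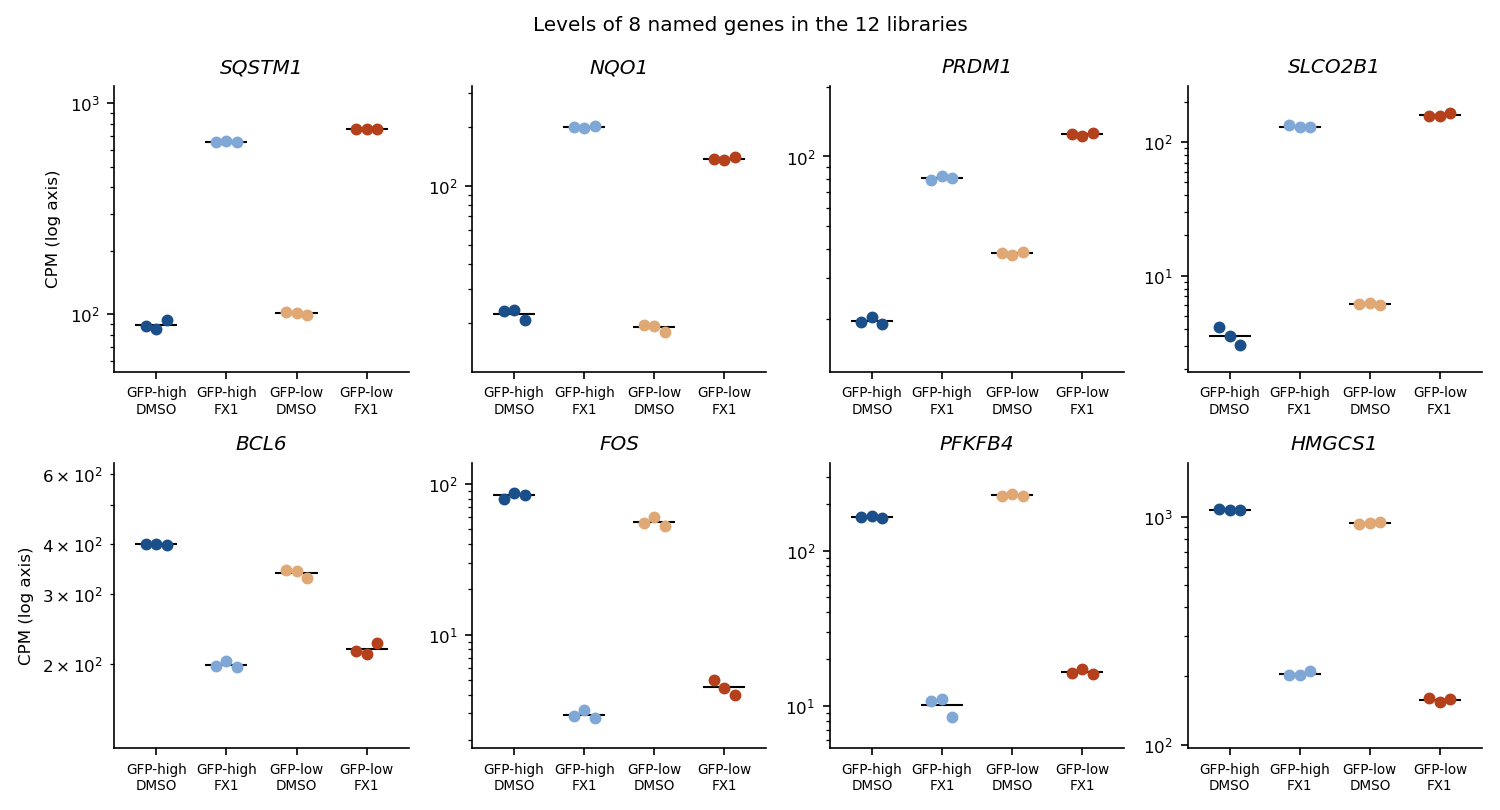
CPM of 8 named genes (log axis) in each of the 12 libraries, by gate and treatment, with black lines at group means. SQSTM1, NQO1, PRDM1 and SLCO2B1 are higher in all 3 GFP-low FX1 libraries than in all 3 GFP-high DMSO libraries, and BCL6, FOS, PFKFB4 and HMGCS1 are lower.

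The promoters of 4 genes are printed because they lead the NRF2, cholesterol and immediate early lists described below or, for PRDM1, the BCL6 targets. They are RefSeq windows of 300 bases on GRCh38.p14, from 250 bases before to 50 bases after the annotated start, read 5′ to 3′ on the gene's strand. Capitals mark matches, on either strand, to any of 8 motifs searched: TGACNNNGC (antioxidant response element core), TCACNCCAC (sterol response element), TGANTCA (AP-1), ACGTG and GCGTG (hypoxia response element), TTCCTNGAA (BCL6 and STAT type), CCAAT (NF-Y) and CACGTG (E-box, which holds an ACGTG). A match is a description of the letters and not a site.
OSGIN1, chr16:83952990-83953289, plus strand: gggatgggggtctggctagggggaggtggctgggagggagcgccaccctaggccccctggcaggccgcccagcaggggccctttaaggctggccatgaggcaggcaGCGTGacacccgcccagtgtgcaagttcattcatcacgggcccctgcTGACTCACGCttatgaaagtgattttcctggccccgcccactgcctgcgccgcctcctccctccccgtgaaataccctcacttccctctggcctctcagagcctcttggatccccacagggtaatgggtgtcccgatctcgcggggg
HMGCS1, chr5:43313363-43313662, minus strand: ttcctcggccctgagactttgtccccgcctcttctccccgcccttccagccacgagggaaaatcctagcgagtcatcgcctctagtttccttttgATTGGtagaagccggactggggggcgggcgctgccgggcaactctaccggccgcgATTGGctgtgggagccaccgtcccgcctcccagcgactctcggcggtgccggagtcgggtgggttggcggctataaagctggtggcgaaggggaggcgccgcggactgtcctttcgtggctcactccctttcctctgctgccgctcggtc
FOS, chr14:75278578-75278877, plus strand: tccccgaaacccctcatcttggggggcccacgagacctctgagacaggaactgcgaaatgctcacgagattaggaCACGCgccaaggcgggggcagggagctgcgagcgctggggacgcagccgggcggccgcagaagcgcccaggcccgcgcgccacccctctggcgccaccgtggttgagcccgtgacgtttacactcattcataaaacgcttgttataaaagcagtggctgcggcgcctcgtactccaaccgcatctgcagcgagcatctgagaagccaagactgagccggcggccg
PRDM1, chr6:106086086-106086385, plus strand: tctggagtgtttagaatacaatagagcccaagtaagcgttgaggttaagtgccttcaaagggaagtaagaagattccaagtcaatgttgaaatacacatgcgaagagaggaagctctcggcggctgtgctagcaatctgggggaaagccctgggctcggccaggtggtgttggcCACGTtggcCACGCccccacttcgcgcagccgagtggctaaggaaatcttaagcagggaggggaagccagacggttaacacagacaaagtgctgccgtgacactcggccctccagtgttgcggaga
The OSGIN1 window held an AP-1 match (TGACTCA) that overlapped a GCGTG match on the other strand, and a second GCGTG match. It held no TGACNNNGC match, but other forms of the antioxidant response element were not searched, so their absence is not shown. HMGCS1 held CCAAT on its other strand at 2 places, FOS held 1 GCGTG match, and PRDM1 held 1 ACGTG and 1 GCGTG match. The 300-base PRDM1 window held none of the BCL6-type motif letters.

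Over all 27305 RefSeq promoters in the table, the antioxidant core was in 13.6%, and it was in 15.6% of the 10551 tested genes with a promoter, 17.6% of the 1046 that rose 2-fold and 14.9% of the 968 that fell 2-fold. In the form TGACNNNGC, the only one counted, it was in 3 of 18 promoters of the NRF2 list. The CCAAT motif was in 35.7% of all promoters, 37.7% of those tested, 33.5% of 2-fold risers and 43.1% of 2-fold fallers, and in 20 of 24 promoters of the G2/M list. The E-box was in 10.2% of promoters tested and in 9 of 23 of the MYC and ribosome biogenesis list. The sterol element was in 1.08% of promoters tested and in 1 of 22 of the cholesterol list, and the BCL6-type motif in 1.09% of those tested and in 0 of 17 of the BCL6-repressed list. AP-1 matches were in 4.55% of those tested and 1 of 19 of the immediate early list. For the hypoxia list, ACGTG was in 12 of 27 (26.9% of those tested) and GCGTG in 13 of 27 (50.1%).

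The largest rise among genes of at least 2 in mean log2 CPM with a proper symbol was in SLCO2B1, a transporter of organic anions. It was at 4.11, 3.54 and 3.06 CPM in GFP-high DMSO and 157, 156 and 164 CPM in GFP-low FX1, a log2 change of 5.48 ± 0.053 (edgeR adjusted p = 2.6e-198). The groups did not overlap. The rule for the 12 largest rises and 12 largest falls asked for a call and for no overlap, so both were fixed for such genes, here and below. CRIM1, a transmembrane protein that binds bone morphogenetic proteins, went from 10.2 to 245 CPM (4.58), and GRPR, the gastrin-releasing peptide receptor, from 2.48 to 28.0 CPM (3.49). Their means in GFP-high FX1 were 130.5, 319 and 35.5 CPM. SAMD9L, an interferon-inducible antiviral factor, rose by 2.91, and EID3 by 2.69. CRTC1, a coactivator of CREB, rose by 2.47 and SH3TC1 by 2.76. LUCAT1, a long noncoding RNA, rose by 2.73, although reads of overlapping genes on the opposite strand cannot be told apart where the strand setting is not stated. AKR1C3, an aldo-keto reductase, had 0 counts in all 3 GFP-high DMSO libraries and 55, 30 and 28 counts in the GFP-low FX1 libraries. Its mean was 2.89 CPM in GFP-high FX1, above the 1.17 CPM of GFP-low FX1. The reverse, 0 counts in all 3 GFP-low FX1 libraries and at least 20 in each GFP-high DMSO library, was found for 3 genes: PDZRN3, a ubiquitin ligase (26, 42 and 25 counts in GFP-high DMSO), the antisense gene ENSG00000258820 (58, 84 and 99) and the intronic noncoding gene ENSG00000234389 (20, 25 and 20). These 4 genes were picked for their zeros after the counts were seen.

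The tested genes of the NRF2 oxidative stress response rose nearly throughout. Of the 31 listed, 7 were not tested, HMOX1, AKR1B10, AKR1C1 and ME1 among them. NRF2 (NFE2L2) is a transcription factor that KEAP1 holds for degradation until oxidants or electrophiles release it. Of 24 members tested, 21 rose and 0 fell, 10 of the rises were 2-fold or more, and the median was 0.77. NQO1, a quinone reductase, was at 22.9, 23.4 and 20.8 CPM in GFP-high DMSO and 137, 137 and 140.2 CPM in GFP-low FX1. All 3 GFP-low FX1 libraries were above it, by 2.62 ± 0.036 on the log2 scale (edgeR adjusted p = 1.4e-163). SQSTM1, the autophagy receptor p62 that also binds KEAP1, went from 87.7, 85.4 and 93.6 CPM to 753, 755 and 753 CPM. That change was 3.09 ± 0.018 (edgeR adjusted p = 2.3e-247), again without overlap. OSGIN1, an oxidative stress-induced growth inhibitor, rose by 3.68 ± 0.14 from 1.12 CPM, and SRXN1, which repairs peroxiredoxins, by 2.53.

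The ferritin genes, which store iron, were among the largest gains in CPM of all genes. FTH1 went from 770.3, 773 and 771 CPM to 2454, 2477 and 2496 CPM and FTL from 379, 378 and 379 CPM to 934, 927 and 943 CPM. TXNRD1 (thioredoxin reductase) rose by 1.57. KEAP1 itself rose by 1.26 (GC-adjusted 0.75), while NFE2L2 was at -0.06 and did not pass (GC-adjusted 0.10, which passed). The glutathione synthesis genes GCLC and GCLM rose by 0.68 and 0.67, the latter with a GC-adjusted change of 1.08. Without the GC trend 19 members rose and 3 fell. FX1 within the GFP-high gate gave a list median of 0.87 and the GFP-low gate under DMSO one of 0.03. These single changes share libraries with the combined one and are set beside it only as values.

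Autophagy and lysosome genes counted 17 rises and 6 falls among 25 tested (median 0.21), with 8 rises of 2-fold or more. CTSD, a lysosomal protease, rose by 1.85 (GC-adjusted 1.2), ATP6V0D1, a subunit of the proton pump, by 1.40 and ULK1, the kinase that starts autophagy, by 1.42 (GC-adjusted 0.63). The lysosomal regulators TFE3 and TFEB rose by 1.17 and 0.97 (GC-adjusted 0.67 and 0.60). Outside the list, PSAP, the precursor of the saposins of lysosomal lipid breakdown, went from 353 to 1053 CPM. Within the list WIPI1 fell by 1.11 on the log2 scale, and after GC removal 19 members rose and 3 fell (median 0.45). Proteasome subunit genes counted 14 rises and 10 falls among 28 (median 0.05), with PSMC4 at 1.06 and PSMB3 at 0.75. Without the GC trend they counted 21 rises and 4 falls (median 0.23). Of 6 tested genes of the aryl hydrocarbon receptor response, 4 rose and 1 fell (median 1.15). The receptor gene AHR itself, ALDH3A1, CYP1A2 and CYP1B1 were not among the genes tested. The rises included NQO1, which is also in the NRF2 list, AHRR (2.08) and CYP1A1 (2.18). AHRR went only from 0.287 to 1.21 CPM, and CYP1A1 was at only 0.532 CPM. TIPARP was the faller, at -0.24, and lost its call with the GC trend removed (5 rises and 0 falls).

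Cholesterol synthesis genes fell together. The pathway runs from acetyl-CoA through mevalonate to sterols and is switched on by SREBP2 when sterols are low. Of 28 members tested, 22 fell and 5 rose, 13 of the falls were 2-fold or more, and the median was -0.55. HMGCS1, which makes HMG-CoA, was at 1079, 1074 and 1068 CPM in GFP-high DMSO and 159.8, 154 and 159 CPM in GFP-low FX1. Every GFP-low FX1 library was lower, by 2.77 ± 0.016 on the log2 scale (edgeR adjusted p = 5.9e-253), or 6.81-fold. ACAT2, the first step, fell by 2.06 on the log2 scale, SQLE by 1.69 and the SREBP regulator INSIG1 by 1.78. Among the risers, ABCA1, a sterol exporter, rose by 1.45 and SCAP, the escort of SREBP, by 1.46 (GC-adjusted 0.80). Without the GC trend the list counted 4 rises and 23 falls, with a median of -0.95. With 1 factor changed, the list median was -0.80 for FX1 in the GFP-high gate and 0.12 for the GFP-low gate under DMSO.

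Fatty acid synthesis genes counted 8 falls and 4 rises among 14 (median -0.45), and 12 falls and 2 rises without the GC trend. SCD, which desaturates fatty acids, went from 1936, 1962 and 1956 CPM to 663, 668 and 666 CPM, a fall of 1.55 on the log2 scale. FADS1, ELOVL6 and ELOVL5, which desaturate and lengthen fatty acids, fell by 1.22, 1.18 and 1.12.

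Hypoxia and glycolysis genes fell too, 25 of 31 tested, with 2 rises and a median of -0.83. HIF1 drives most of them when oxygen is short. Of the falls, 14 were 2-fold or more. PFKFB4, which sets the level of a glycolytic activator, went from 165, 167 and 162 CPM to 16.2, 17.2 and 16.1 CPM. No library of the groups overlapped, and the fall was 3.32 ± 0.037 on the log2 scale (edgeR adjusted p = 2.4e-177). NDRG1, a stress-response gene under HIF1, went from 16.6, 16.6 and 15.5 CPM to 0.133, 0.202 and 0.230 CPM, close to absence at this depth. LDHA, lactate dehydrogenase, fell by 1.93 on the log2 scale from 1909 to 500.1 CPM, and the glucose transporter SLC2A3 by 2.17. The mitophagy receptor BNIP3L fell by 2.13, PDK1, a kinase that inhibits pyruvate dehydrogenase, by 1.64, and HK2 by 1.03. The glycolytic genes TPI1, PFKL, PFKP and ALDOA did not pass the test, but their GC-adjusted changes of -0.30, -0.81, -0.35 and -0.11 did. HIF1A itself fell by 0.12 on the log2 scale, which turned to 0.36 when GC-adjusted. ENO2 and PFKM, which passed, rose by 0.89 and 0.43, and the call of ENO2 was lost when GC-adjusted (0.63). The list median was -0.83 for FX1 within the GFP-high gate and 0.01 for the GFP-low gate under DMSO.

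**Figure D3:**
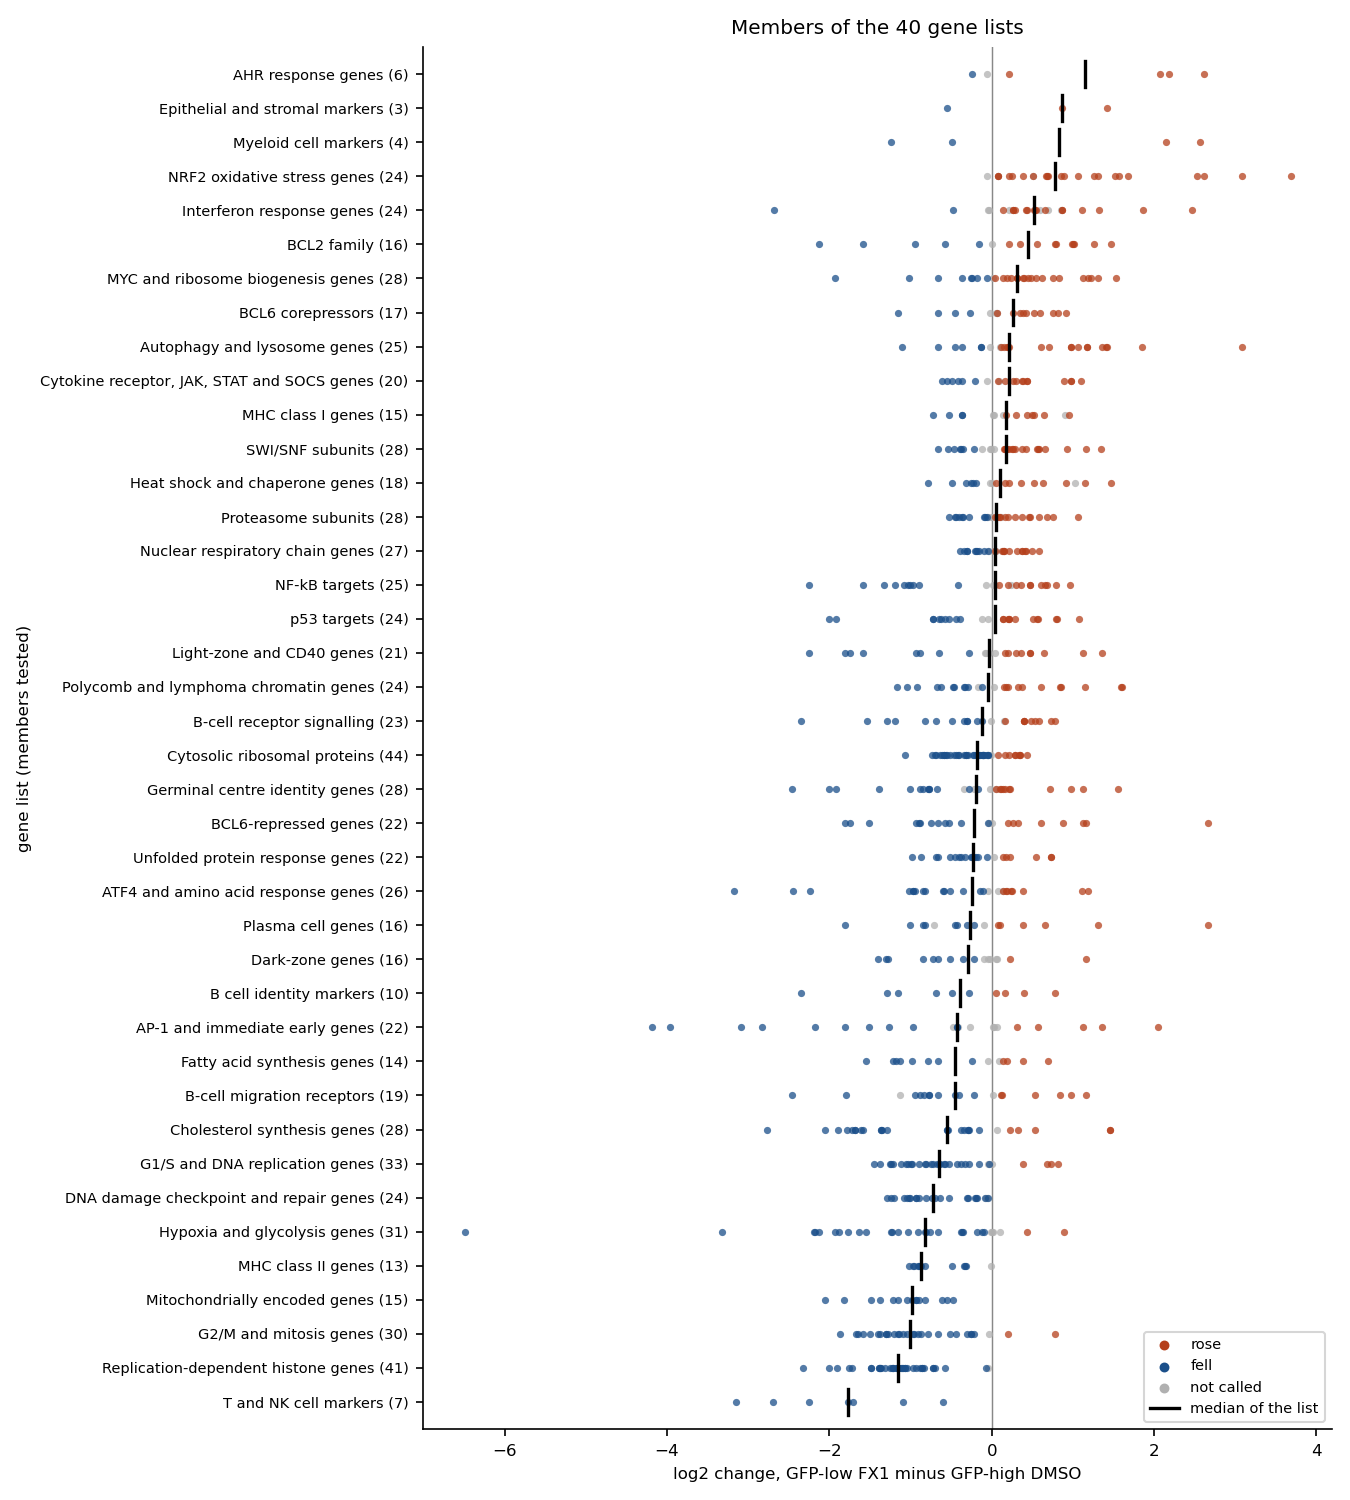
Log2 change of each tested member of the 40 gene lists, GFP-low FX1 minus GFP-high DMSO, coloured by call, with a black bar at each list's median. NRF2 genes lie almost wholly to the right (21 rose, 0 fell), and cholesterol, hypoxia, G2/M, histone and mitochondrially encoded genes mostly to the left.

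Genes of proliferation were lower. Of 30 G2/M and mitosis genes, 27 fell and 2 rose, 15 of the falls 2-fold or more, with a median of -1.01 (1 rise and 28 falls without the GC trend). CCNA2 (cyclin A2) was at 201, 195 and 189.8 CPM in GFP-high DMSO and 52.2, 53.8 and 54.6 CPM in GFP-low FX1. These do not overlap, and the fall was 1.87 ± 0.028 on the log2 scale (edgeR adjusted p = 2.3e-155). CENPE, a kinetochore motor, fell by 1.68, CDK1 by 1.64 (GC-adjusted -1.09) and the checkpoint gene MAD2L1 by 1.59. CDC25B rose by 0.77 (GC-adjusted 0.28), and CDC20 by 0.20, which turned to -0.14 when GC-adjusted. Of 33 genes of G1/S and DNA replication, 27 fell and 4 rose (median -0.65). PCNA, the replication clamp, fell by 1.46 on the log2 scale and RRM2, a subunit of ribonucleotide reductase, by 1.38, whereas MCM5, CCNE1 and E2F2 rose by 0.82, 0.73 and 0.68 (GC-adjusted 0.40 for MCM5 and 0.22 for E2F2). Of 24 checkpoint and repair genes, 22 fell and 0 rose (median -0.72), including CLSPN (1.29 down on the log2 scale) and BRCA2 (1.24), and 2 rose and 19 fell without the GC trend.

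Replication-dependent histone genes, which are transcribed in S phase and whose messages lack a poly(A) tail, fell in 40 of 41 tested members (with their regulators NPAT and SLBP in the list), 29 of them 2-fold or more, and the median was -1.16. Histone transcripts made up 0.613% to 0.617% of counts in GFP-high DMSO and 0.316% to 0.319% in GFP-low FX1. H2BC18 went from 248, 239.7 and 248 CPM to 58.4, 61.9 and 65.1 CPM and H1-3 from 35.3, 34.2 and 30.6 CPM to 9.08, 8.98 and 8.36 CPM. Outside the list, the histone H4 genes H4C11 and H4C12 fell by 3.39 and 3.30 on the log2 scale, but near-identical histone copies may share reads. The list medians were -0.44 for FX1 in the GFP-high gate and -0.24 for the GFP-low gate under DMSO. The combined change lay below their sum, by a departure that passed the threshold, for 38 of 41 members, against 16.5% of all tested genes. The median departure from the sum was -0.53, against 0.02 over all tested genes.

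All 15 mitochondrially encoded genes fell, with a median of -0.99 (GC-adjusted 15 falls and -0.61). MT-CO1, a subunit of cytochrome c oxidase, went from 21573, 21359 and 21763 CPM to 14872, 14662 and 14693 CPM, and MT-ATP8, a subunit of ATP synthase, from 2039, 2096 and 1966 CPM to 498, 472 and 495 CPM. Their changes were -0.55 and -2.06, and GC-adjusted -0.34 and -1.2. Here the single changes were already as large: the list medians were -0.94 for FX1 in the GFP-high gate and -0.99 for the GFP-low gate under DMSO. The combined change lay above their sum, by a departure that passed, for 13 of 15 members, against 14.8% of all tested genes, and the median departure was 1.03. The exceptions were the ribosomal RNAs MT-RNR1 and MT-RNR2, which the ribosomal depletion of the library kit targets. The mean level of MT-RNR1 was 359 CPM with DMSO and 828 CPM with FX1 in the GFP-high gate, against 89.7 and 128 CPM in the GFP-low gate. Mitochondrial tRNA genes, short and at most 2.80 in mean log2 CPM, went the other way, with 14 rises and 4 falls among 21 and a median of 1.25.

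Nuclear genes of the respiratory chain stayed near the middle, with 13 rises and 10 falls among 27 and a median of 0.05 (GC-adjusted 13, 8 and 0.11). COX5B rose by 0.50 and NDUFA4 by 0.42 (GC-adjusted 0.86). CYC1 rose by 0.58 but turned to -0.08 with the GC trend removed. Genes of cytosolic ribosomal proteins counted 34 falls and 9 rises among 44 (median -0.18, GC-adjusted -0.11), led by RPS24, which fell by 1.07 on the log2 scale. Genes of MYC and ribosome biogenesis counted 19 rises and 8 falls among 28 (median 0.31), and GC-adjusted 17 rises and 6 falls (median 0.13). The rRNA processing genes BOP1, RRP9 and RRP12 rose by 1.53, 1.31 and 1.22 (GC-adjusted 0.81, 0.85 and 0.73), while the abundant nucleolar genes NPM1 and NCL fell by 1.01 and 0.66.

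The largest fall of the genes named by rule was in a small RNA. RNY1 (chr7:148987136-148987248, minus strand) is a Y RNA, a 113-base noncoding RNA that binds the Ro60 protein and has been linked to the start of DNA replication. Its sequence is given for that fall. It is the GENCODE transcript written as DNA, with no part in capitals.
RNY1: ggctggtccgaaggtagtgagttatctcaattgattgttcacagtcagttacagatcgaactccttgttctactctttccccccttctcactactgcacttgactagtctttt
It was at 59.2, 71.7 and 52.8 CPM in GFP-high DMSO and 0.488, 0.235 and 0.138 CPM in GFP-low FX1. The groups lie far apart, with a fall of 7.52 ± 0.22 on the log2 scale (edgeR adjusted p = 1.6e-12). With 1 factor changed it was at 5.16, 5.43 and 5.60 CPM in GFP-high FX1 and 4.96, 4.44 and 5.62 CPM in GFP-low DMSO. Spliceosomal small RNAs were lower as well. The rule for named genes leaves out the symbols that begin with RNU, so those given here were picked after their values were seen. RNU4-1 (U4) went from 34.1 to 1.40 CPM, a fall of 4.60 ± 0.11 on the log2 scale, and RNU6ATAC, of the minor spliceosome, from 5.17 to 0.207 CPM, and the variant U1 genes RNVU1-31 and RNVU1-34 fell by 3.92 and 3.23 on the log2 scale. RN7SL1 rose from 1912, 1731 and 1969.8 CPM to 5185, 5524 and 5369.7 CPM, so small RNAs did not all fall. Copies of these genes may share reads. Whether RNAs as short as RNY1 were recovered alike in all libraries was not tested.

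Immediate early genes split. AP-1 is the dimer of FOS and JUN proteins that answers growth and antigen-receptor signals. Among 22 tested members 11 fell and 5 rose, with a median of -0.43, and without the GC trend 14 fell and 6 rose (median -0.84). FOS was at 79.8, 86.9 and 85.1 CPM in GFP-high DMSO and 5.02, 4.44 and 3.99 CPM in GFP-low FX1. All FX1 libraries were lower, by 4.19 ± 0.062 on the log2 scale (edgeR adjusted p = 4.1e-156), or 18.3-fold. FOSB went from 161, 160.1 and 157 CPM to 10.7, 10.2 and 9.14 CPM. EGR1 went from 101 to 14.1 CPM, and JUN fell by 1.80. DUSP5, a phosphatase that holds ERK in the nucleus, rose by 2.04 and BATF, an AP-1 factor of lymphocytes, by 1.35. JUNB and JUND were at 0.03 and 0.06 and did not pass, whereas their GC-adjusted changes of -0.65 and -0.87 did. Other large falls were in LRRC32 (GARP, which docks latent TGF-beta), from 28.8 to 1.15 CPM, JPH2 (junctophilin 2), from 14.8 to 0.891 CPM, and the protease gene TMPRSS3, from 64.8 to 6.46 CPM.

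Other stress programmes divided between rises and falls. Of 26 ATF4 and amino acid response genes, 15 fell and 8 rose (median -0.25), and GC-adjusted 20 fell and 6 rose (median -0.56). DDIT4, an inhibitor of mTORC1, went from 304, 310.3 and 299 CPM to 54.4, 58.9 and 54.1 CPM, whereas the amino acid transporter genes SLC7A5 and SLC3A2 rose by 1.19 (GC-adjusted 0.57) and 1.11. Of 22 unfolded protein response genes, 15 fell and 6 rose (median -0.23, GC-adjusted -0.10), with PDIA6 down by 0.98 on the log2 scale and SYVN1 up by 0.73 (GC-adjusted 0.34). Heat shock and chaperone genes counted 9 rises and 6 falls among 18 (median 0.11, GC-adjusted 0.18). HSPA1B rose by 1.15 (GC-adjusted 0.73), although HSPA1A and HSPA1B share sequence, and HSPD1, the mitochondrial chaperonin, fell by 0.78. Among 24 p53 targets 12 rose and 10 fell (median 0.04, or -0.24 without the GC trend): TNFRSF10A, a death receptor, rose by 1.07, while CCNG1 and DDB2 fell by 2.00 and 1.92 on the log2 scale.

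In the BCL2 family, 10 of 16 genes rose and 5 fell (median 0.45), and GC-adjusted 9 rose and 6 fell (median 0.26). All 10 that rose are known as death-promoting members: HRK rose by 1.47, BMF by 1.26, BAK1 by 1.01, BAD by 1.00, BID by 0.98, BBC3 (PUMA) by 0.80, BIK by 0.78, BAX by 0.55, BCL2L11 (BIM) by 0.34 and PMAIP1 (NOXA) by 0.21. GC-adjusted, BAK1 was at 0.61, BAD at 0.31 and BBC3, no longer called, at -0.13. BMF went from 41.8, 39.4 and 42.6 CPM to 100.2, 97.7 and 97.8 CPM without overlap. Of the survival members, BCL2A1 fell by 1.58 on the log2 scale (GC-adjusted -1.03), MCL1 by 0.95 and BCL2 by 0.58, and BCL2L1 was at -0.00 and did not pass (GC-adjusted -0.34, which passed). BNIP3L, already given with the hypoxia genes, was the largest faller.

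Germinal centre identity genes counted 13 falls and 11 rises among 28 (median -0.19), and 17 falls and 6 rises (median -0.29) without the GC trend. RGS13, which damps chemokine receptor signals, went from 399.9, 406 and 401 CPM to 74.9, 73.4 and 70.1 CPM, a fall of 2.46 ± 0.021 on the log2 scale (edgeR adjusted p = 6.8e-211). No libraries overlapped. MYBL1 and LMO2, transcriptional regulators of germinal centre cells, fell by 2.01 and 1.91, while MEF2B, which activates BCL6, rose by 1.12 (GC-adjusted 0.38). Plasma cell genes divided too: 8 of 16 fell and 6 rose, PRDM1 among the latter (median -0.27), and GC-adjusted 11 fell and 4 rose. SLAMF7 rose by 1.31 and JCHAIN, the immunoglobulin joining chain, fell by 1.01 on the log2 scale (GC-adjusted -0.39). IGHM, the mu heavy chain, which is not in the list, rose by 0.65 (GC-adjusted 0.17), from 2402 to 3779 CPM. Dark-zone genes counted 9 falls and 2 rises among 16 (median -0.29), with the cell cycle genes HMMR, TOP2A and MKI67 among the falls. Light-zone and CD40 genes counted 9 rises and 8 falls among 21 (median -0.04, with 6 rises, 11 falls and a median of -0.25 without the GC trend), with CD86 at 0.64 and CCL22, a T-cell attracting chemokine, down by 2.26 on the log2 scale.

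Genes of MHC class II were nearly all lower, whereas those of antigen receptor signalling and MHC class I divided. Of 23 B-cell receptor signalling genes 12 fell and 9 rose (median -0.12), and 13 fell and 6 rose (median -0.22) without the GC trend. CR2 (CD21), the complement co-receptor, went from 694, 695 and 687 CPM to 139, 135 and 132 CPM, a fall of 2.35 ± 0.017 (log2, edgeR adjusted p = 1.6e-228). The inhibitory receptor genes CD22 and CD72 fell by 1.29 and 1.19 and PTPN6 (SHP-1) by 1.54, while CD79B, a signalling chain of the receptor, rose by 0.78 (GC-adjusted 0.39). All MHC class II genes but 1 fell, 12 of 13, with a median of -0.88. HLA-DRA went from 1330.2, 1335 and 1312 CPM to 649, 654 and 652 CPM and CD74, the invariant chain, from 3115, 3106 and 3155 CPM to 1662, 1646 and 1667 CPM. The exception was CIITA, the master regulator of the class, at -0.01, which fell when GC-adjusted (-0.37). HLA-DRB1 and HLA-DRB5 are similar enough to share reads. Of 15 MHC class I genes 7 rose and 4 fell (median 0.18, GC-adjusted 0.04): the peptide transporter genes TAP1 and TAP2 rose by 0.95 (GC-adjusted 0.57) and 0.65, and HLA-E and HLA-F fell by 0.52 and 0.72.

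Of 25 NF-kB targets 11 rose and 10 fell (median 0.05), and 6 rose and 14 fell without the GC trend (median -0.32). BIRC3, an inhibitor of apoptosis, went from 1209 to 480.1 CPM (log2 change -1.33, GC-adjusted -0.87) and IL10 from 13.4 to 6.04 CPM, and the regulators BCL3 and NFKBIB rose by 0.96 and 0.79. GC-adjusted, BCL3 was at 0.14 and no longer called, and NFKBIB was at 0.31. Interferon response genes counted 16 rises and 2 falls among 24 (median 0.52). Their largest rises were at low levels: OAS1, which senses double-stranded RNA, went from 0.872 to 4.79 CPM and IFI35 from 1.05 to 3.80 CPM. PARP14 fell, from 0.356 to 0.0408 CPM. Cytokine receptor, JAK, STAT and SOCS genes counted 12 rises and 6 falls among 20 (median 0.21, GC-adjusted 0.10), with IL10RA at 1.10 and PIM1 at 0.98. B-cell migration receptor genes counted 11 falls and 6 rises among 19 (median -0.46), where CCR7 rose by 0.97. Polycomb and lymphoma chromatin genes were even, at 11 rises and 11 falls among 24 (median -0.05). KMT2D, a histone methyltransferase often mutated in lymphoma, went from 218, 219 and 221 CPM to 486, 489.7 and 474 CPM, and the related SETD1B from 47.4 to 144 CPM. Their rises were 1.14 and 1.6, and GC-adjusted 0.48 and 0.89.

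The labelled cell type was checked against marker genes. All 10 B-cell identity markers were detected, summing to 3371 to 3386 CPM in GFP-high DMSO and 2303 to 2312 CPM in GFP-low FX1, here without TMM scaling. Of them 4 rose and 6 fell (median -0.39), and 1 rose and 7 fell without the GC trend, with MS4A1 (CD20) down by 1.16 on the log2 scale (GC-adjusted -0.70). Other lineages were scarce. The 16 T and NK markers summed to 27.3 to 27.6 CPM and 6.60 to 8.55 CPM, all 7 tested fell, and 2 were at 0 in all 6 libraries. LCK, a kinase of T cells that some B-cell lymphomas also express, was at 16.4, 15.2 and 16.4 CPM and 3.71, 3.73 and 2.16 CPM. The 12 myeloid markers summed to 3.27 to 3.95 CPM and 7.63 to 8.04 CPM, with 2 of 4 tested rising, 2 falling and 2 markers at 0. ITGAM rose by 2.57, and CD33, at -0.49, lost its call in most of the alternatives tried. The 12 epithelial and stromal markers summed to 12.9 to 15.3 CPM and 20.4 to 23.0 CPM, with 2 of 3 tested rising, 1 falling and 5 at 0. Their part in the changes of other genes was not tested.

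The combined change was then set against the sum of the log2 changes with 1 factor altered, which is also the difference of the FX1 change between the gates. The departure from the sum passed the threshold for 5583 of 17859 genes (31.3%), with 2636 above the sum (14.8%) and 2947 below it (16.5%). With mitochondrial and other large genes left out before scaling, 2014 were above and 3617 below, and leaving out GFP-high DMSO replicate 1, 2 or 3 gave 1797 and 3511, 1759 and 3484, and 1863 and 3546. Large departures were few: 427 genes (2.39%) departed by 2-fold or more. For the other genes the departure did not pass, which does not show that the changes add.

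The genes below were picked as the 6 largest departures each way among genes called for both the departure and a combined change of 2-fold or more, with at least 2 in mean log2 CPM and a symbol allowed by the rule. RNU symbols are not, and RNU6ATAC, RNU5B-1 and RNU4-1 lay above their sums by 2.07 ± 0.53, 2.04 ± 0.26 and 1.29 ± 0.19. Genes below the sum included several that moved little with either factor alone. LYPLA1, a depalmitoylating enzyme, was at 333, 329 and 335 CPM in GFP-high DMSO, 333, 336 and 333 CPM in GFP-high FX1, 333, 332 and 329 CPM in GFP-low DMSO and 162, 159.8 and 155 CPM in GFP-low FX1. The GFP-low FX1 libraries alone were low, and the departure was -1.06 ± 0.025 (log2, SE, edgeR adjusted p = 3.4e-112). The combined change of LYPLA1 was also -1.06, and -0.56 when GC-adjusted. TMED7, a cargo receptor of early secretion, had means of 91.3, 81.1, 84.7 and 34.5 CPM in the same order, a departure of -1.11 ± 0.049 (edgeR adjusted p = 1.5e-59). IER3IP1, another gene of the early secretory pathway, had means of 22.9 CPM in GFP-high DMSO and 10.2 CPM in GFP-low FX1, with single changes of -0.09 and -0.05. CD69 had 51.2, 46.6, 41.9 and 17.9 CPM. It was somewhat lower with either factor alone, and most of its fall, a departure of -1.09, appeared only in the combined group. PCLAF, which binds PCNA, fell by 0.81 with FX1 in the GFP-high gate and by 1.76 in the combined comparison, while the light-chain gene IGLC3 rose by 0.31 with FX1 in the GFP-high gate and fell by 1.07 in the combined one. Reads of IGLC3 may come from its close copies.

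FOS and FOSB lay above their sums. FOS fell by 4.84 on the log2 scale with FX1 in the GFP-high gate, by 0.58 in the GFP-low gate under DMSO and by 4.19 combined, a departure of 1.23 ± 0.12 (edgeR adjusted p = 1.7e-18). The departure was 1.39 ± 0.083 for FOSB and 1.48 ± 0.18 for RNVU1-31. It was 1.15 ± 0.054 for MT-ATP6 and 1.13 ± 0.045 for MT-ATP8, subunits of ATP synthase. MAP1A, a microtubule-associated protein, differed from these: it had means of 3.54, 5.42, 4.36 and 15.1 CPM, and its combined rise of 2.10 exceeded the sum by 1.17 ± 0.17. BCL6 lay above its sum by 0.36 ± 0.025 and PRDM1 below it by 0.34, so both changed less than their single changes added would give.

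**Figure D4:**
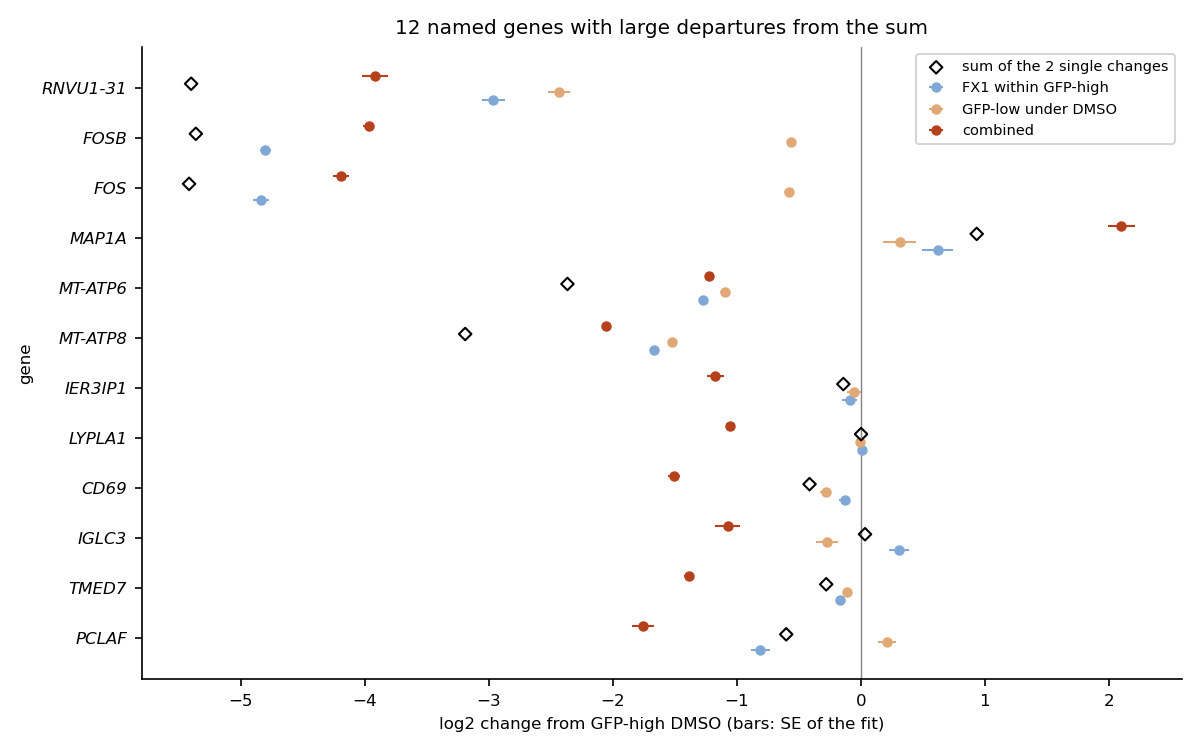
Log2 change from GFP-high DMSO for 12 named genes, the 6 largest departures each way within the limits given in the text (RNU symbols left out): FX1 within the GFP-high gate, the GFP-low gate under DMSO, the combined change (points, bars showing SE) and the sum of the single changes (open diamonds). For LYPLA1, TMED7 and IER3IP1 the combined change lies left of single changes that are near 0, and for FOS and FOSB it lies right of the sum.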

How the data were processed

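Total RNA of Raji cells was made into ribosome-depleted libraries, per the labels' protocols. The authors deposited raw read counts per gene; per the submitters' processing notes STAR, Subread featureCounts, FastQC and R 4.2.1 were used with build hg38, and the strand setting and annotation release are not given in the sources used here. The columns matched the 12 sample titles. A damaged record of 3 lines was left out, and 60707 genes were used.

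Counts were tested with edgeR 4.0.16 (R 4.3.3): TMM scaling, filterByExpr, a quasi-likelihood fit of the 4 groups over all 12 libraries (8 residual degrees of freedom) and Benjamini-Hochberg adjustment over 17859 genes at 0.05. Totals of 20454028 to 42556661 counts set the precision. In simulated data of 17382 genes, all groups were alike except for 200 well-counted genes changed in GFP-low FX1. The combined contrast recovered 76.1% of 67 genes changed 1.2-fold, 93.0% of 71 changed 1.5-fold and 100% of 62 changed 2-fold, with 10 false calls. The simulation held no GC trend and few changed genes, so these rates do not give the accuracy of the calls in the real data. Alternatives were other scalings, filters and tools (DESeq2 1.42.0), fewer groups, a replicate block, removal of the GC and length trend, a fold floor and leaving out each library in turn.

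The members and the 40 gene lists were chosen with earlier results of these data known. Named genes are the 12 that rose and the 12 that fell most, if they were called, averaged 2 or more in log2 CPM, did not overlap between groups and had a proper symbol (no placeholder or pseudogene name, and none of the RNU, RN7S, RNA5S, MIR, SNOR and SCARNA families); SMARCA4, SMARCA2, BCL6 and PRDM1; up to 4 called members of each list with the largest changes; the 6 largest departures each way under the same level and symbol limits and with a called change of 2-fold or more; and the 6 largest CPM gains and losses. The departures were picked only among genes called for the departure. Further list members, the spliceosomal RNAs, AKR1C3 and the genes at 0 in GFP-low FX1 were named after their values were seen. Some named genes are not reported here.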

Additional observations from a re-analysis of the deposited data

Results flagged for a closer look

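The FX1 change was compared between the GFP-low and GFP-high gates by the interaction contrast of the fit on the log2 scale. The difference passed for 15 of the 16 genes tested for it by name, against 31.3% of all genes tested. However, 12 of them were picked as the largest departures among genes already called for the departure. These also had at least 2 in mean log2 CPM and a called change of 2-fold or more, RNU symbols left out. Their passing was fixed by that choice, so their sizes and p-values are a description. The change was more positive in the GFP-low gate by 1.48 ± 0.18 (SE, edgeR adjusted p = 7.5e-13) for RNVU1-31. Next came FOSB at 1.39 ± 0.083, FOS at 1.23 ± 0.12, MAP1A at 1.17 ± 0.17, MT-ATP6 at 1.15 ± 0.054 and MT-ATP8 at 1.13 ± 0.045. It was more negative in the GFP-low gate for PCLAF, at -1.16 ± 0.12 (SE, edgeR adjusted p = 6.3e-18). The same held for TMED7 at -1.11 ± 0.049, IGLC3 at -1.11 ± 0.13, CD69 at -1.09 ± 0.066, LYPLA1 at -1.06 ± 0.025 and IER3IP1 at -1.03 ± 0.091. For genes named whatever their departure, the difference was 0.36 ± 0.025 (SE, edgeR adjusted p = 6.2e-32) for BCL6 and -0.34 ± 0.057 (SE, edgeR adjusted p = 1.3e-07) for PRDM1. It was 0.18 ± 0.021 (SE, edgeR adjusted p = 1.5e-13) for SMARCA4, where it fell to 0.0030 and lost its call once the GC and length trend was removed. SMARCA2 did not pass.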

How the results depend on the processing

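The 13264 calls of the combined comparison became 12691 with DESeq2, 13744 with no low-count filter, 10807 with at least 50 counts in 3 libraries, 12817 with only the groups compared and 12759 without the GC and length trend. A floor of 1.5-fold (glmTreat) left 5791. The 4261 changes of 2-fold or more became 2206 with at least 50 counts in 3 libraries, where fewer genes are tested, and the 5583 departures became 151 under the 1.5-fold floor. Leaving out 1 library gave 12732 to 13483 calls, 4248 to 4500 changes of 2-fold or more and 5167 to 5432 departures. Same-numbered libraries of the groups compared did not deviate together (correlations of 0.003, -0.020 and 0.006), and the paired fit with a replicate block gave 13204 calls, 4251 of 2-fold or more and 5536 departures.

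Of the 184 named genes, 184 kept direction and call under RLE and upper-quartile scaling, 183 with DESeq2 and 178 without the GC and length trend. That removal turned SMARCA4 to -0.41 and CYC1 to -0.081, and with the replicate block added they were at -0.40 and -0.078 and TIPARP at 0.0043. The cause was not tested. CD33, near the threshold, lost its call under most settings, and 14 genes did not pass the 1.5-fold floor. The mitochondrial genes had no value where they were left out before scaling. Small RNAs and genes of a few CPM are limited by counting.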
